A study of Mus musculus with 8 samples.

Results

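Kif5c and the other neuronal kinesin motors were followed here as 10 genes of 21643 with a symbol in a transcript count table of mouse brain: Kif5c, Kif5a, Kif5b, Kif1a, Kif1b, Kif2a, Kif3a, Kif3b, Kif21a and Kif21b. Each gene was read from its table row of highest summed count, out of 17 rows that the members have. Kif5c was chosen by its extreme share of reads in 1 library, control hippocampus at 6 h, so its levels are described and carry no test. The other 9 were taken as its motor family relatives. The libraries hold polyribosome-associated mRNA of C57Bl/6 mice aged 7-9 weeks, from hippocampus and frontal cortex, at 1 h and 6 h after contextual fear conditioning (a chamber paired with shock) or after exposure to the context alone (control). There were 8 libraries, 1 for each combination of tissue, training and time: fear conditioned and control hippocampus at 6 h, the same at 1 h, and the 4 matching cortex libraries. The labels count 4 control and 4 conditioned mice, describe the dissection of prefrontal cortex alone, and do not say which animals entered which library. The p-values thus reflect the variation among these libraries, which may be technical.

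Kinesins are motor proteins that walk along microtubules on ATP and carry vesicles, organelles and RNA granules through axons and dendrites. KIF5 heavy chains pair with light chains and adaptors and carry, among other cargo, granules of dendritic mRNA. KIF1 motors carry synaptic vesicle precursors, KIF3 subunits form a motor of mixed heavy chains, KIF21 motors act on microtubule growth, and KIF2A shortens microtubule ends. Their mRNAs are long and are found in neurons throughout the forebrain.

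The sequences around the gene starts of Kif5c, on which the main description turns, and of Kif3a, which was higher at 6 h, are shown from 250 bases before to 50 bases after the start (RefSeq, GRCm38.p6). Capitals mark TGACGTCA, the cAMP response element, a site of the CREB family and its own reverse complement, or its shorter form TGACG, searched on both strands as TGACG and CGTCA, which every TGACGTCA also holds.
Kif5c, chr2:49619036-49619335, plus strand: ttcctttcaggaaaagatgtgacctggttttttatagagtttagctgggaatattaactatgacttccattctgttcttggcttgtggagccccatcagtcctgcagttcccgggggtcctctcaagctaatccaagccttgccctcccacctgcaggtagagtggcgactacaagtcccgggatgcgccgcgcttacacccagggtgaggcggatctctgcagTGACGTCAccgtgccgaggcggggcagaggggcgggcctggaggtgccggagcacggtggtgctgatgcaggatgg
Kif3a, chr11:53567119-53567418, plus strand: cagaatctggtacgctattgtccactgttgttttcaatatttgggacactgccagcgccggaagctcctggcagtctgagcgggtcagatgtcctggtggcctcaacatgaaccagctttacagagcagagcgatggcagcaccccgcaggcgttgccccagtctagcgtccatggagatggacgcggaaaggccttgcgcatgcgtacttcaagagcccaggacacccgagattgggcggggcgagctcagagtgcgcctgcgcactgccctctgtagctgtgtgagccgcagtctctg

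The Kif5c window held TGACGTCA, with its first base 26 bases before the gene start. Of 32851 promoter windows of the same length, 1.79% held TGACGTCA and 20.8% held TGACG or CGTCA. The members had 10 windows, from 7 of the 10 genes, since some genes have more than 1 start in the table. Counted by window as in that background, 1 of the 10 held TGACGTCA, that of Kif5c, and 6 of the 10 held the shorter form. Neither motif was in the Kif3a window. A match is a description of the letters and not a bound site.

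Before the results, some features of the libraries bear on every comparison. The libraries labelled conditioned 1 h of hippocampus and of cortex differed by little more than counting noise and were counted as 1 sample: over 11338 genes a chi-square with 1 expected under counting noise averaged 1.06, against 4.74 for the next closest pair. Their summed markers of hippocampal principal neurons stood at 298 and 303 CPM (counts scaled to a library total of 1000000), between 564 in the hippocampus control 1 h and 80.6 CPM in the cortex control 1 h library. They were therefore left out of the fits, and values under their labels are given as labelled. In the other libraries the summed hippocampal markers stood at 564 to 708 CPM in hippocampus against 78.6 to 91.8 CPM in cortex, and of the 6 markers 2 had no count in the cortex conditioned 6 h library and 1 had none in cortex control 1 h. Neuronal markers summed to 9801 to 28793 CPM over the 8 libraries. Libraries held 2370973 to 5296986 counts, the lowest being the hippocampus control 6 h library. It also had the fewest genes with counts, 13312, against 14496 to 15009 in the others. Its chi-square averaged 35.9 to 83.3 against the other libraries, where pairs without it ranged from 1.06 to 47.0. Against hippocampus conditioned 6 h it was 38.7. Hippocampus conditioned 6 h lay at 21.4 and 21.7 from the cortex control and conditioned libraries of 6 h. What set hippocampus control 6 h apart was not tested. CPM here are on library totals without Kif5c (2181146 to 5293219 counts). In bulk tissue, fewer cells of a type, less RNA per cell and less of that RNA on polyribosomes cannot be told apart.

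Kif5c, a heavy chain of the neuronal kinesin-1 motor, had 23866 counts in the hippocampus conditioned 6 h library and 189827 in the hippocampus control 6 h library. It had between 1380 and 3767 counts in each of the other 6 libraries. As a share of all counts this was 0.545% (exact 95% binomial interval 0.538% to 0.552%) in conditioned hippocampus at 6 h and 8.01% (7.97% to 8.04%) in control hippocampus at 6 h. In cortex at 6 h the shares were 0.0711% in the conditioned and 0.0707% in the control library. At 1 h they were 0.0391% in conditioned and 0.0440% in control hippocampus, and 0.0387% in conditioned and 0.0382% in control cortex. Both hippocampus libraries of 6 h thus stood apart from all others, the control far more than the conditioned one. Intervals cover counting error only, since reads amplified by PCR are not independent molecules.

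On totals without Kif5c, the level was 5480 CPM in conditioned and 87031 CPM in control hippocampus at 6 h, 712 and 708 CPM in conditioned and control cortex at 6 h, 391 and 440 CPM in conditioned and control hippocampus at 1 h, and 387 and 382 CPM in conditioned and control cortex at 1 h. Kif5c was the most abundant gene in the hippocampus control 6 h library, the third most abundant in hippocampus conditioned 6 h, and ranked between 87 and 258 elsewhere. The ratio of conditioned to control hippocampus at 6 h was 0.0630 (95% counting interval 0.0621 to 0.0638), while the same ratio in cortex was 1.01 (0.961 to 1.05). With 1 library in each group, these ratios compare libraries and not conditions. Leaving Kif5c in the total lowered its own value in hippocampus control 6 h to 80063 CPM.

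Outside both hippocampus libraries of 6 h, Kif5c still differed with time. In cortex controls it stood at 708 CPM at 6 h, against 382 CPM at 1 h, a ratio of 1.85 (1.74 to 1.97). The 2 cortex libraries of 6 h lay above all 4 libraries of 1 h, which spanned 382 to 440 CPM. Those 4 include the conditioned pair counted as 1 sample. Across all genes with at least 50 counts summed over the 2 libraries, the median of that ratio was 0.940, and Kif5c lay at the 82.7th percentile. Those genes are of every GC content, with which time changes moved (below), and Kif5c has 47.5% GC. The 1280 genes within 1 percentage point of 47.6% GC had a median log2 change of 0.41 in the fit of both tissues. The part of GC content in the Kif5c ratio was not tested.

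**Figure D1:**
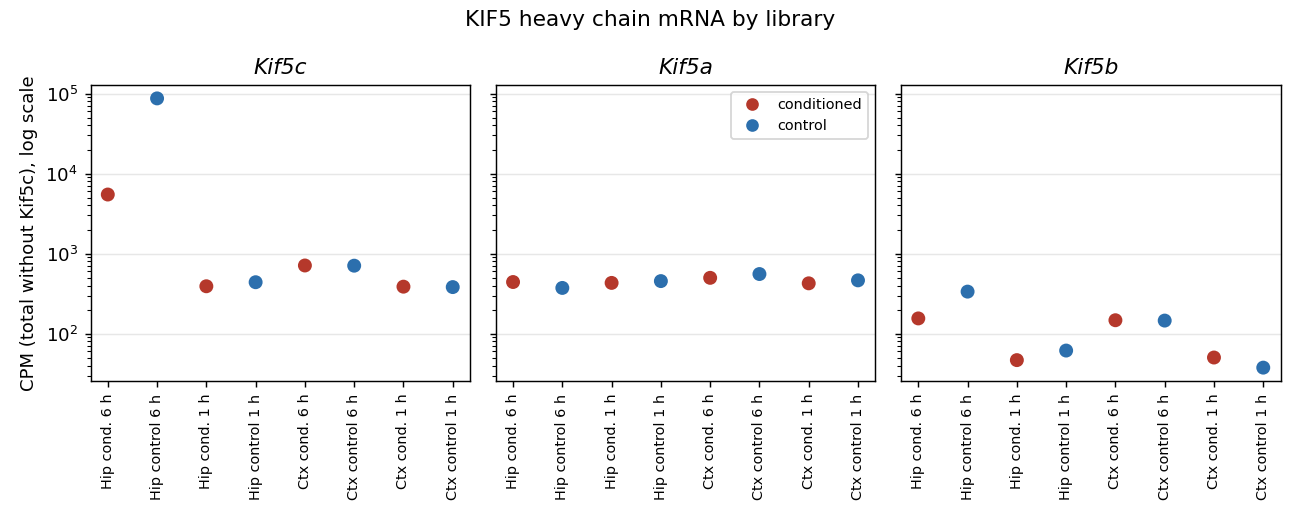
CPM on totals without Kif5c (log axis) of the KIF5 heavy chains in each of the 8 libraries, 1 point a library, red conditioned and blue control, "Hip" hippocampus and "Ctx" cortex. Kif5c reached 5480 and 87031 CPM in conditioned and control hippocampus at 6 h, while Kif5a stayed between 373 and 557 CPM.

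The excess was larger than that of any other gene ranked. Among 2895 genes with at least 100 counts in hippocampus control 6 h, the CPM there exceeded the highest of the other 7 libraries 15.9-fold for Kif5c. The next genes were Hmgn5, a nucleosome-binding protein, at 5.85-fold, Gm9962 at 4.84-fold, Pkp2, a plakophilin of desmosomes, at 4.53-fold, Ppp3ca, a catalytic subunit of calcineurin, at 4.36-fold, and Xpa, a DNA repair protein, at 4.17-fold. In hippocampus conditioned 6 h, set against the highest of the 6 remaining libraries, Kif5c again ranked first of 5136 genes at 7.70-fold, before Arhgef6 at 2.51-fold. These values are those that the gene was chosen for, or come from the same pattern, and support nothing further.

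The genes annotated on both sides of Kif5c on chromosome 2 had smaller differences between the hippocampus libraries of 6 h (gene order from RefSeq, GRCm38.p6). Lypd6b, whose start lies 12.6 kb beyond the end of Kif5c, had 13 counts (2.99 CPM) in conditioned and 6 counts (2.75 CPM) in control hippocampus at 6 h. Epc2, a chromatin protein that ends 67.3 kb before Kif5c, stood at 69.1 CPM in conditioned and 161 CPM in control hippocampus at 6 h, and at 78.2 and 95.8 CPM in conditioned and control cortex. Mbd5, on the same side, stood at 155 and 232 CPM, and Orc4, a subunit of the origin recognition complex, at 12.2 and 40.3 CPM in conditioned and control hippocampus at 6 h. Lypd6 stood at 6.89 and 6.88 CPM and Mmadhc, a cobalamin-handling protein, at 10.8 and 4.13 CPM. The highest ratio of control to conditioned hippocampus at 6 h among these 6 neighbours was 3.32 (Orc4), against 15.9 for Kif5c.

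**Figure D2:**
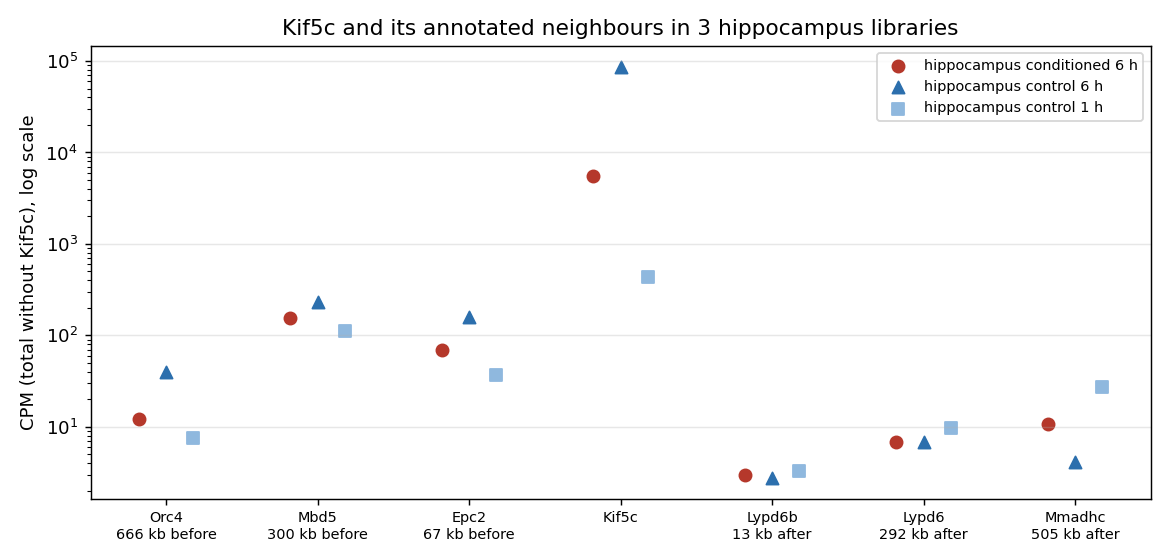
CPM on totals without Kif5c (log axis) of Kif5c and the 3 nearest genes with table rows on either side, in the conditioned 6 h, control 6 h and control 1 h hippocampus libraries, with the distance to Kif5c under each name. The highest neighbour value was 232 CPM (Mbd5 in control 6 h), against 87031 CPM for Kif5c in the same library.

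Levels that followed the Kif5c pattern most closely were far smaller in range. Over 7 points (the conditioned 1 h pair averaged) and 10383 genes with a mean log2 CPM of at least 2, the highest Pearson correlations of log2 CPM with Kif5c were those of Clint1 (0.995), a clathrin adaptor, Vps13b (0.988), Sphkap (0.983), an anchor of protein kinase A, Pms2 (0.980), a mismatch repair protein, and Mdn1 (0.978), a ribosome assembly factor. Clint1 stood at 104 CPM in conditioned and 134 CPM in control hippocampus at 6 h, against 81.8 to 91.8 CPM in the other 6 libraries. Sphkap stood at 263 and 401 CPM in the same 2 libraries, against 160 to 214 CPM in the other 6. Since 1 library is far from the rest, these coefficients describe mainly that library. Of the members, Kif5b had the highest coefficient with Kif5c (0.83), and Kif21b the lowest (-0.84). Among the 10383 genes Kif5b ranked only 688 and Kif21b 8534, so many genes outside the family followed Kif5c more closely.

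The other KIF5 heavy chains varied far less. Kif5a, the second neuronal heavy chain, stood at 442 CPM in conditioned and 373 CPM in control hippocampus at 6 h, its lowest value. In the other libraries it stood between 426 CPM (cortex conditioned 1 h) and 557 CPM (cortex control 6 h), so that its range over all libraries was 1.49-fold. Kif5b, the heavy chain found in most cell types, stood at 155 and 336 CPM in conditioned and control hippocampus at 6 h, and at 147 and 146 CPM in conditioned and control cortex at 6 h. At 1 h it stood at 46.8 and 61.6 CPM in hippocampus and at 50.4 and 37.7 CPM in cortex, conditioned before control. Every 6 h library lay above every 1 h library for Kif5b, and the groups of Kif5a overlapped. The libraries of 1 h include the conditioned pair counted as 1 sample. Per kb of transcript, Kif5b made up 26.8% and 48.4% of Kif5a and Kif5b together in conditioned and control hippocampus at 6 h and 23.6% and 21.5% in cortex, against 7.81% to 12.4% in the 4 libraries of 1 h. Kif5c made up 89.3% and 99.1% of all KIF5 heavy chain mRNA per kb in conditioned and control hippocampus at 6 h, against 50.03% and 47.8% in conditioned and control cortex at 6 h and 41.1% to 43.8% in the libraries of 1 h.

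Among the vesicle motors, Kif1a and Kif1b were the members of highest level per kb, with medians of 125 and 115 CPM per kb over the libraries. Kif5c (83.7), Kif5a (71.2), Kif3a (59.3), Kif21a (44.1), Kif2a (33.6), Kif3b (18.2), Kif5b (17.2) and Kif21b (6.95 CPM per kb) followed. The ranges over libraries of every 2 neighbours in this order overlapped. Kif1a stood at 976 and 662 CPM in conditioned and control hippocampus at 6 h and at 1382 and 1042 CPM at 1 h. In cortex it stood at 953 and 1010 CPM at 6 h and at 1374 and 1751 CPM at 1 h, conditioned before control. Within each tissue and label it was lower at 6 h. Kif1b spanned 523 CPM (hippocampus control 6 h) to 803 CPM (cortex control 1 h), and its times overlapped.

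**Figure D3:**
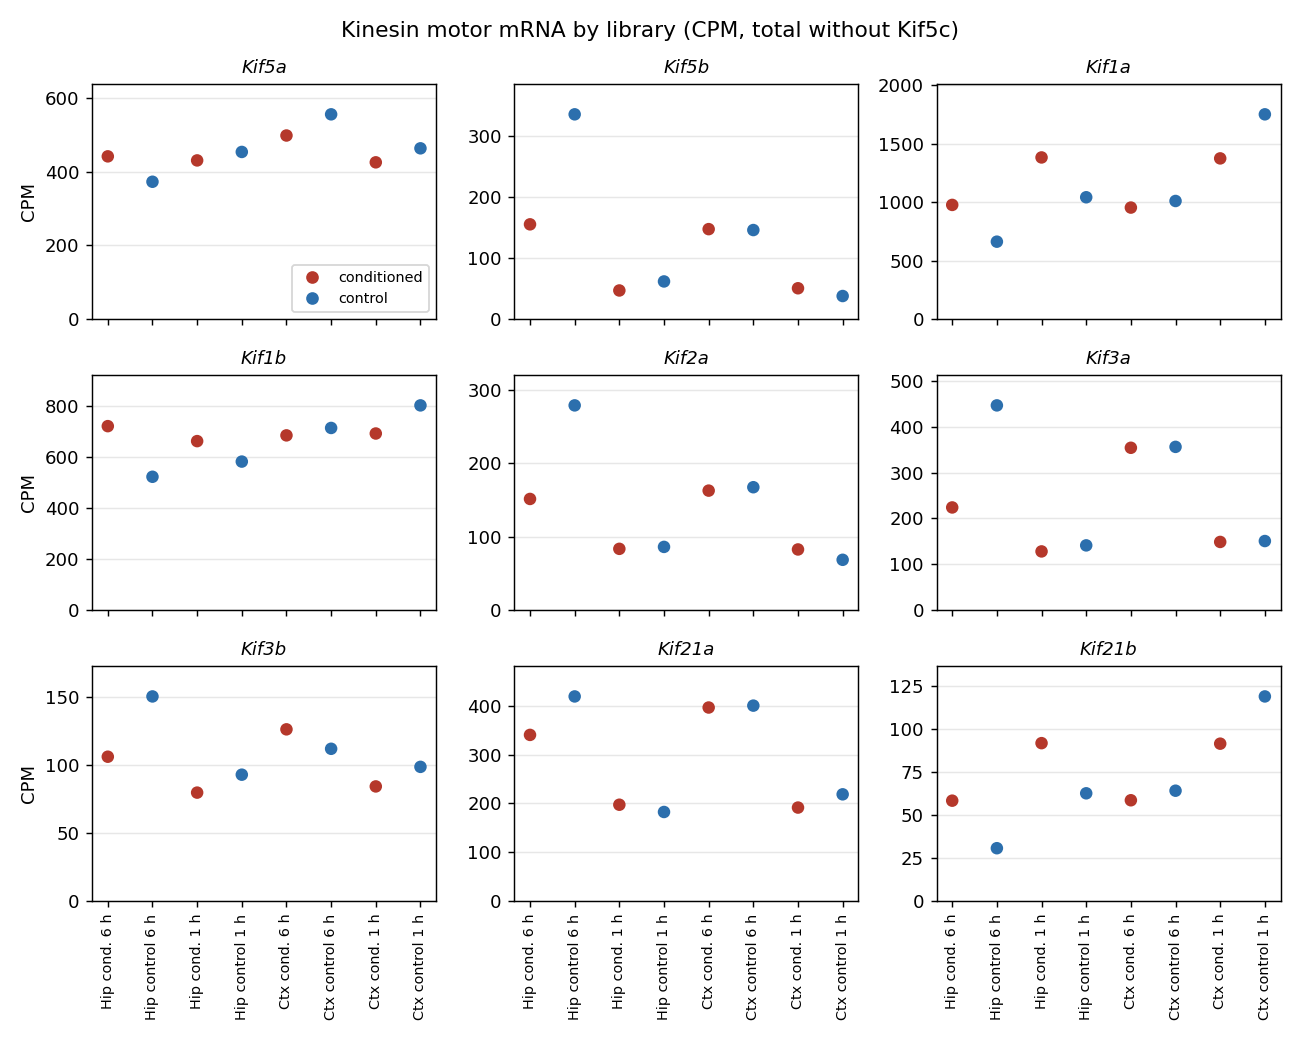
CPM on totals without Kif5c (linear axes from 0, a scale for each gene) of the 9 kinesins other than Kif5c in the 8 libraries, 1 point a library, red conditioned and blue control. Kif5b, Kif2a, Kif3a, Kif3b and Kif21a lay higher, and Kif1a lower, in all 4 libraries of 6 h than in all 4 of 1 h. Those of 1 h include the conditioned pair counted as 1 sample. Kif5b reached 336 CPM in hippocampus control 6 h.

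The comparison of 6 h with 1 h was made among controls, in an edgeR quasi-likelihood fit of 6 libraries (both tissues, 2 libraries each for control 6 h, control 1 h and conditioned 6 h). Log2 changes use TMM scaling, where the hippocampus control 6 h library has a factor of 0.812, and CPM quoted above do not. The time covers time of day and handling as well. Kif5b, Kif2a, Kif3a and Kif21a, 4 of the 9 members, passed as higher at 6 h at an adjusted p of 0.05, beside 12.9% of all 16123 rows, and 0 passed as lower, beside 10.3% of the rows. Of the 9, 7 had a positive change with a median of 0.76 on the log2 scale, where the median over 11783 genes was -0.06. The sum of the 6 neuronal markers was higher at 6 h as well, with none of them at 0. It stood at 26307 and 27259 CPM in control hippocampus and cortex at 6 h, against 9801 and 12094 CPM at 1 h. The most abundant markers weigh most in such a sum, which does not show that each marker moved. The 5 oligodendrocyte markers summed to 718 and 564 CPM at 6 h, against 1206 and 675 CPM at 1 h. The 5 astrocyte markers summed to 210 and 165 CPM at 6 h, against 263 and 196 CPM at 1 h. A list of 5 striatal neuron markers was lower at 6 h too, at 10.1 and 254 CPM, against 68.5 and 348 CPM. Sums of cortical excitatory neuron markers were higher, at 351 and 1130 CPM, against 192 and 787 CPM. Those of hippocampal principal neurons were higher too, at 708 and 91.8 CPM, against 564 and 80.6 CPM. The part of these cell types in the result was not tested.

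Kif5b rose by 2.55 on the log2 scale (SE 0.44, edgeR adjusted p = 0.002075), with 336 and 146 CPM in control hippocampus and cortex at 6 h, against 61.6 and 37.7 CPM at 1 h. Kif2a, the microtubule-shortening motor, stood at 279 and 167 CPM in control hippocampus and cortex at 6 h, against 86.0 and 68.4 CPM at 1 h. It rose by 1.82 (SE 0.41, edgeR adjusted p = 0.00604), and control libraries of the 2 times did not overlap. Kif3a, a motor subunit of the mixed KIF3 heavy chains, stood at 447 and 356 CPM in control hippocampus and cortex at 6 h, against 141 and 151 CPM at 1 h. Its log2 change was 1.79 (SE 0.42, edgeR adjusted p = 0.00725). Kif21a, a brain-rich kinesin, stood at 419 and 400 CPM at 6 h, against 182 and 219 CPM at 1 h in hippocampus and cortex (1.34, SE 0.40, edgeR adjusted p = 0.0218).

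For the remaining 5 the change did not pass. Kif3b, the partner of Kif3a, had a log2 change of 0.76 (SE 0.40, edgeR adjusted p = 0.163), with 150 and 112 CPM at 6 h in control hippocampus and cortex, against 92.9 and 98.6 CPM at 1 h. The changes of Kif5a (0.28, SE 0.38) and Kif1b (0.12, SE 0.39) were within 1 SE of 0. Those of Kif1a (-0.45, SE 0.41) and Kif21b (-0.68, SE 0.40) were negative. Kif21b, a kinesin of dendrites, stood at 30.7 and 64.1 CPM in control hippocampus and cortex at 6 h, against 62.6 and 119 CPM at 1 h. The ratio of Kif3a to Kif3b per kb was 3.77 and 5.299 in conditioned and control hippocampus at 6 h and 5.01 and 5.68 in cortex, against 2.71 to 3.15 in the libraries of 1 h. The 2 times did not overlap in that ratio, a description chosen after its values were seen.

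Base composition moved with these time changes. Across the 9 members the log2 change at 6 h had a rank correlation of -0.97 (Pearson -0.95) with transcript GC content, and across 11758 tested genes one of -0.75 (-0.73). Both are across genes of the same libraries, which are not independent replicates. Kif5b (41.1% GC) and Kif2a (41.8%) had the lowest GC content and the largest changes, and Kif21b (56.7%) and Kif1a (55.1%) the highest and the lowest changes. The 648 genes within 1 percentage point of the GC content of Kif5b had a median change of 1.26, and the 1280 around Kif3a (47.6%) one of 0.41. With the dependence on GC content and length taken out, Kif3a (1.37, SE 0.31, edgeR adjusted p = 0.0213) and Kif5b (1.19, SE 0.29, edgeR adjusted p = 0.0311) were called, beside 4.07% of 15744 rows called in either direction and 2.99% called higher. Kif2a (0.70, SE 0.29, edgeR adjusted p = 0.1685) and Kif21a (0.65, SE 0.28, edgeR adjusted p = 0.196) were not called in that fit, and the change of Kif1a was -0.02. Those of Kif1b and Kif21b were -0.09 each. The median of the 9 in that fit was 0.57, against -0.08 over 11758 genes. As first fitted, each of the 9 lay above the median of the genes within 1 percentage point of its GC content. Whether the 9 differ from other genes as a set was not tested.

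**Figure D4:**
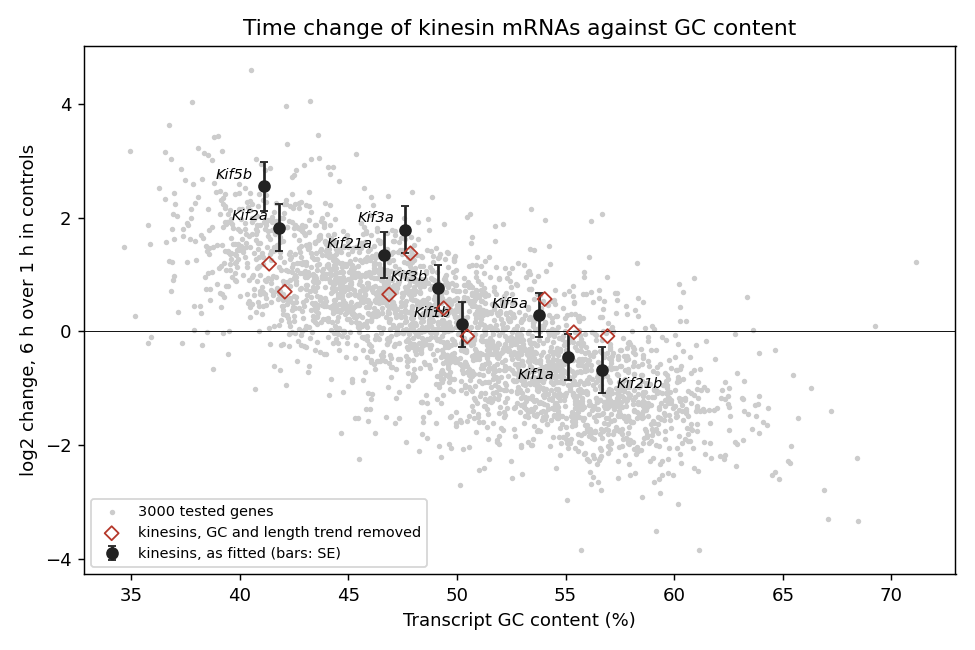
Log2 change at 6 h over 1 h among controls (vertical) against transcript GC content in percent (horizontal), grey points being tested genes. Black points with SE bars are the 9 kinesins as fitted, which run from 2.55 for Kif5b to -0.68 for Kif21b, and red diamonds, drawn slightly to the right, their change with the GC and length trend removed.

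A single library also weighed on the time changes. Without the hippocampus control 6 h library, Kif5b (1.84, edgeR adjusted p = 0.00151), Kif2a (1.24, adjusted p = 0.0337) and Kif3a (1.16, adjusted p = 0.0368) were still called and Kif21a (0.95, adjusted p = 0.0823) was not, with 889 rows called in all. Without the hippocampus control 1 h library 0 rows were called by edgeR (2819 at an unadjusted p under 0.05) and the 4 genes had changes of 1.10 to 2.43. Without the cortex control 1 h library only Kif5b was called of the 4 (2.65, edgeR adjusted p = 0.0481).

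In the comparison of hippocampus with cortex (3 libraries each) no member passed, beside 3.72% of all rows. Kif5b had the largest positive change, 0.71 (SE 0.34, edgeR adjusted p = 0.37), and Kif21b the most negative, -0.61 (SE 0.33, edgeR adjusted p = 0.466). With the GC and length trend removed these were 0.44 and -0.43, and neither was called. At 6 h Kif21b stood at 58.3 and 30.7 CPM in conditioned and control hippocampus, against 58.6 and 64.1 CPM in cortex. The changes of the other 7 lay between -0.39 (Kif1a) and 0.37 (Kif2a), with SE of 0.31 to 0.34.

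In the comparison of conditioned with control libraries at 6 h (2 each) no member passed, beside 0% of all rows. edgeR, DESeq2 and limma-voom each called 0 of 16123 rows, with 666, 490 and 727 at an unadjusted p under 0.05. Changes ran from -0.71 for Kif5b (SE 0.42, edgeR adjusted p = 0.911) to 0.27 for Kif21b (SE 0.41, edgeR adjusted p = 0.933). With the GC and length trend removed these 2 changes were -0.29 for Kif5b and 0.0056 for Kif21b, and the most negative was that of Kif3a (-0.52). The ratios of single libraries that follow carry no such correction. In cortex the ratio of conditioned to control lay between 0.897 (Kif5a) and 1.13 (Kif3b) for the 9 members. In hippocampus it was 0.463 for Kif5b (95% counting interval 0.416 to 0.514), 0.501 for Kif3a, 0.543 for Kif2a, 0.705 for Kif3b and 0.812 for Kif21a. It was 1.19 for Kif5a (1.09 to 1.29), 1.38 for Kif1b, 1.48 for Kif1a and 1.90 for Kif21b (1.45 to 2.52). Over all genes with at least 50 counts summed over both libraries, the median hippocampal ratio was 1.19. An added term for the difference between tissues, with 1 residual degree of freedom, called none of the 9 (edgeR adjusted p = 1 for each) and 0 of 16123 rows. Its SE ran from 0.73 (Kif21b) to 0.83 (Kif1a). With 1 library per combination it cannot decide whether the hippocampal and cortical ratios differ. Without the cortex control 6 h library, where the hippocampus control 6 h library alone stands for the controls of 6 h, edgeR called 2030 rows, among them Kif5b (-1.29, adjusted p = 0.0153), Kif3a (-1.19, adjusted p = 0.0231) and Kif2a (-1.11, adjusted p = 0.0412).

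The genes that work with these motors were read from lists of other kinesins, adaptors, dynein, microtubule proteins and RNA granules. Of 33 other kinesins 31 were in the table and 14 passed the low-count filter. At 6 h 3 of these were called higher and 0 lower: Cenpe (4.22), a kinetochore motor, Kif11 (3.29), a spindle motor, and Kif27 (2.29). Their median log2 change was 0.04, and with the GC and length trend removed Cenpe was the 1 called. Over all 11758 genes of that fit 308 were called higher and 141 lower. Of 24 tested light chains and cargo adaptors, 2 were higher and 6 lower at 6 h (median -0.68). The largest were Ppfia2, a liprin scaffold that binds KIF1A (2.49), Mapk8ip1 (-2.23) and Mapk8ip2 (-1.67), JIP scaffolds that link cargo to KIF5, and Rhot2, a mitochondrial Miro adaptor (-1.63). With the trend removed, Ppfia2 and Gprasp2 were the 2 called.

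Of 23 tested subunits of cytoplasmic dynein, the motor of the opposite direction, and its partners, 4 were higher and 2 lower (median -0.23). They included Dynlt3 (2.02), a dynein light chain, Dctn3 (-1.91), a dynactin subunit, Bicd1 (1.63), a cargo adaptor, and Dynll1 (-1.36), a light chain. None was called with the trend removed. Of 21 tubulins and microtubule-associated proteins, 4 were higher and 6 lower (median -0.00), among them Tubb2a (-2.06) and Tubb3 (-1.96), beta tubulins, Map7d2 (1.72), a relative of the kinesin-1 cofactor MAP7, and Dcx (1.54), doublecortin. Map7d2 and Tubb2a were the 2 called with the trend removed. Of 16 proteins and cargo messages of KIF5 RNA granules, 8 were higher and 1 lower (median 1.08), with Fmr1, the fragile X protein (2.03), Eif2s1, an initiation factor subunit (1.86), and Fxr1 (1.65) higher and Arc, a dendritic cargo message (-1.49), lower. With the trend removed 0 of the 16 were called by edgeR, and their median was 0.10. Over all 11783 genes 1478 were higher and 1286 lower. With the trend removed these were 308 and 141 of 11758, with a median of -0.08. The 0 of 16 lies near that share.

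Between tissues the microtubule list was the 1 with calls, 1 of 21 tested genes higher and 2 lower, beside 208 higher and 217 lower of all 11783 genes. Stmn1, a tubulin-binding stathmin (-2.04), and Tubb3 (-1.35) were lower and Map4 (1.21) was higher in hippocampus. For training at 6 h no gene of these lists was called, and their median changes lay between -0.44 (RNA granules) and 0.28 (light chains and adaptors), where the median over all genes was 0.03. The lists were chosen with earlier results of these data known.

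Several members have more than 1 row. The second row of Kif1a held 99.9% to 100% of the counts of the first in every library, and the other rows of Kif21a and Kif2a held 96.4% to 99.7%, so such rows count the same reads. For Kif5a the row NM_008447 held 48.7% and 40.0% of the counts of NM_001039000 in conditioned and control hippocampus at 6 h and 39.4% and 37.0% in cortex, against 45.3% to 57.1% at 1 h. For Kif1b the second row held 8.52% to 13.6%. The pair of conditioned 1 h libraries gave ratios of hippocampus to cortex between 0.861 (Kif3a, 95% counting interval 0.763 to 0.972) and 1.03 (Kif21a) for the 10 members.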

How the data were processed

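The authors deposited 1 table of raw read counts per RefSeq transcript for the 8 libraries. The cDNA came from rRNA-depleted RNA by mixed random and poly A priming and was amplified by SPIA and PCR, per the labels' protocols. CASAVA 1.7, TopHat 1.3.1, edgeR 2.612, limma 3.12.3 and build mm9 are named, with no role, per the submitters' processing notes. For the counting program, strand and shared reads, the sources used here name nothing. Of 28157 rows 97.9% were matched to a symbol (RefSeq and GENCODE tables of GRCm38, also used for GC content, length and gene order).

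Counts were fitted in R 4.3.3 with edgeR 4.0.16 (quasi-likelihood, robust; TMM and totals without Kif5c; default low-count filter; Benjamini-Hochberg at 0.05 over all rows) on 6 libraries, with terms for tissue and for combination of training and time, which left 2 residual degrees of freedom. CPM were computed on totals without Kif5c. The named genes were the members, up to 4 called genes of largest change per list, the 5 genes most like Kif5c, the 5 next in excess and 3 neighbours a side. Members and lists were chosen with earlier results of these data known. Alternatives, DESeq2 1.42.0 and limma-voom (limma 3.58.1) among them, are given below. The code of the fits was also run on simulated counts with 1 assumed spread and no GC trend. That does not show how the fits perform on these libraries.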

Additional observations from a re-analysis of the deposited data

Results flagged for a closer look

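Among the 4 control libraries, Kif5c in hippocampus control 6 h (87031 CPM) lay far from the other 3 (382 to 708 CPM). The gene was chosen by its share in this library, so the distance is a description and not a test. None of the other 9 members had a control library as far from the rest, where chance gives about 1 in 20, and the 4 libraries differ in tissue and time. What set the level in that library was not tested.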

How the results depend on the processing

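Counts of called rows were 600 between tissues, 3742 for time and 0 for training. Between tissues they were 916 without a low-count filter, 357 with rows of a gene summed, 360 with 1 row per gene (chosen after seeing the data), 978 with the GC and length trend removed and 0 with all 8 libraries as labelled (1543 at an unadjusted p under 0.05). For time they were 640 with the trend removed. With all 8 libraries averaged over training states the calls for time were 6358, the conditioned 1 h pair entering as 2 libraries. With 1 library left out they ran from 199 to 857 between tissues, from 0 to 6949 for time and from 0 to 2030 for training. Upper-quartile factors shifted the median time change of all rows by -0.14. Kif5c in hippocampus control 6 h was 80063 CPM on the full total.

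Of the 9 members' 3 changes, 392 of 423 alternative values kept their direction and side of the threshold, 10 lost and 5 gained a call, and 16 changed sign, none of them a called change. Most of the 423 belong to changes not called in the main fit, which could lose no call. All 10 losses fell on the time changes of Kif5b, Kif2a, Kif3a and Kif21a, the only ones called there. The 423 thus say little on how stable those calls are. For time, Kif1b was -0.0215 with upper-quartile factors and -0.0907 with the trend removed. With the trend removed, Kif3b between tissues was -0.0049 and Kif1a for training -0.0898. With 1 library left out, the changes that could turn sign ran from -0.25 to 0.26 (Kif3b), -0.46 to 0.21 (Kif3a) and -0.32 to 0.0669 (Kif21a) between tissues, from -0.15 to 0.42 for Kif1b over time, and from -0.80 to 0.16 (Kif3b), -0.64 to 0.0266 (Kif21a), -0.22 to 0.39 (Kif1a), -0.16 to 0.27 (Kif1b) and -0.19 to 0.70 (Kif21b) for training. Kif3b passed for time with all 8 libraries averaged (0.70, edgeR adjusted p = 0.0404). That fit enters the conditioned 1 h pair, elsewhere counted as 1 sample, as 2 libraries, so its p-value may be too small. Without the cortex control 6 h library the change of Kif3b was 1.23. A group left with 1 library was assumed to vary like the others. The causes were not tested. The tissue term already compares times and training states within each tissue. No paired analysis by replicate number was possible because the labels give none. The 2 residual degrees of freedom, and a library of 2370973 counts, limit the precision.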
